A study of Mus musculus with 10 samples.

Results

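Mitochondrial carriers are the proteins of the SLC25 family, most of which sit in the inner mitochondrial membrane and exchange nucleotides, phosphate, keto acids, amino acids, cofactors or ions between matrix and cytosol; the uncoupling proteins belong to the same family. Members were taken by symbol from the deposited count table, as Slc25a genes with a number plus Ucp1, Ucp2 and Ucp3, leaving out the carnitine carrier Slc25a20, which gave 49 of the 55385 genes in the table. Total RNA was sequenced from left ventricles of mice whose strain the labels spell C56Bl6, with 5 libraries a group. HFpEF mice received High-Fat + L-NAME for 6 weeks, which combines dietary fat with a blocker of nitric oxide synthases and serves as a model of heart failure with preserved ejection fraction. Control mice received a standard diet over the same 6 weeks. Neither the sex and age of the animals nor the dose of L-NAME appears in the labels, and no label says whether the libraries of a group came from different animals, so the p-values speak only of the spread between the sequenced libraries. Both parts of the HFpEF regimen were given together, and their contributions cannot be told apart.

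In a cardiomyocyte, ADP/ATP and phosphate carriers feed the ATP synthase and export its product, and they are among the most abundant proteins of the inner membrane. The aspartate/glutamate and 2-oxoglutarate/malate carriers form the membrane arm of the malate-aspartate shuttle, which brings cytosolic reducing equivalents into the matrix. Ucp1 dissipates the proton gradient as heat in brown fat. Ucp2 and Ucp3, the latter of muscle and brown fat, are related proteins whose transcripts respond to fatty acid supply.

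Library totals were 31286355 to 33604554 counts in HFpEF and 31555001 to 46108710 in Control, and transcripts of the mitochondrial genome took 36.2% to 38.5% of the counts in HFpEF and 33.6% to 37.5% in Control. Values are CPM (counts per 1000000 on TMM-scaled library sizes, all genes counted). Log2 fold changes are HFpEF over Control with their standard error (SE), and a gene was called when its adjusted p in edgeR's quasi-likelihood test, adjusted over all 18491 genes tested, was below 0.05. Heart muscle markers were abundant in both groups (Myh6, the main ventricular myosin of the mouse, 11850 ± 416 CPM in HFpEF and 12167 ± 426 CPM in Control, SD, n = 5 each). The 7 adipocyte markers together reached 0.0973 to 0.717 CPM in HFpEF and 0.238 to 1.04 CPM in Control, and the 5 skeletal muscle markers 0.133 to 0.595 CPM in HFpEF and 0.283 to 0.519 CPM in Control. In whole tissue, fewer cells of a type and less RNA per cell cannot be told apart.

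Of the 49 genes, 42 passed the filter on low counts and were tested. Of these, 3 were higher in HFpEF (Slc25a34, Ucp2 and Slc25a26), 1 was lower (Slc25a13) and 38 were not called. The 4 calls were 9.52% of the 42, against a background of 5.33% called over all genes tested (3.24% higher and 2.09% lower). These shares rest on few calls, and the changes were small. The median log2 fold change was 0.021 over the tested members and -0.011 over all genes tested, and the median absolute log2 fold change was 0.15 over the members against 0.11 over all genes. At an unadjusted p below 0.05 there were 18 of 42 members, or 42.9%, against 20.5% of all genes tested. The 18 include Slc25a31, which passed the filter through the Control libraries, where it is higher. The CPM of the groups did not overlap for 6 of 42 members, or 14.3%, against 6.81% of all genes tested. HFpEF was above in 4 of them (Slc25a34, Slc25a26, Slc25a32 and Ucp3; background 3.88%) and below in 2 (Slc25a4 and Slc25a45; background 2.93%). Ucp3 was close to a tie, with a lowest HFpEF value of 37.7039 CPM and a highest Control value of 37.7033 CPM. Slc25a32 was also close, at 16.41 CPM against 16.37 CPM. The 7 members that were not tested never exceeded 16 counts in a library, and they are given with their classes. Exons of 15 members overlap another annotated gene, 2 of them over at least 10% of their exonic bases. No label says whether the libraries kept strand, so reads of overlapping genes on opposite strands cannot be told apart.

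**Figure D1:**
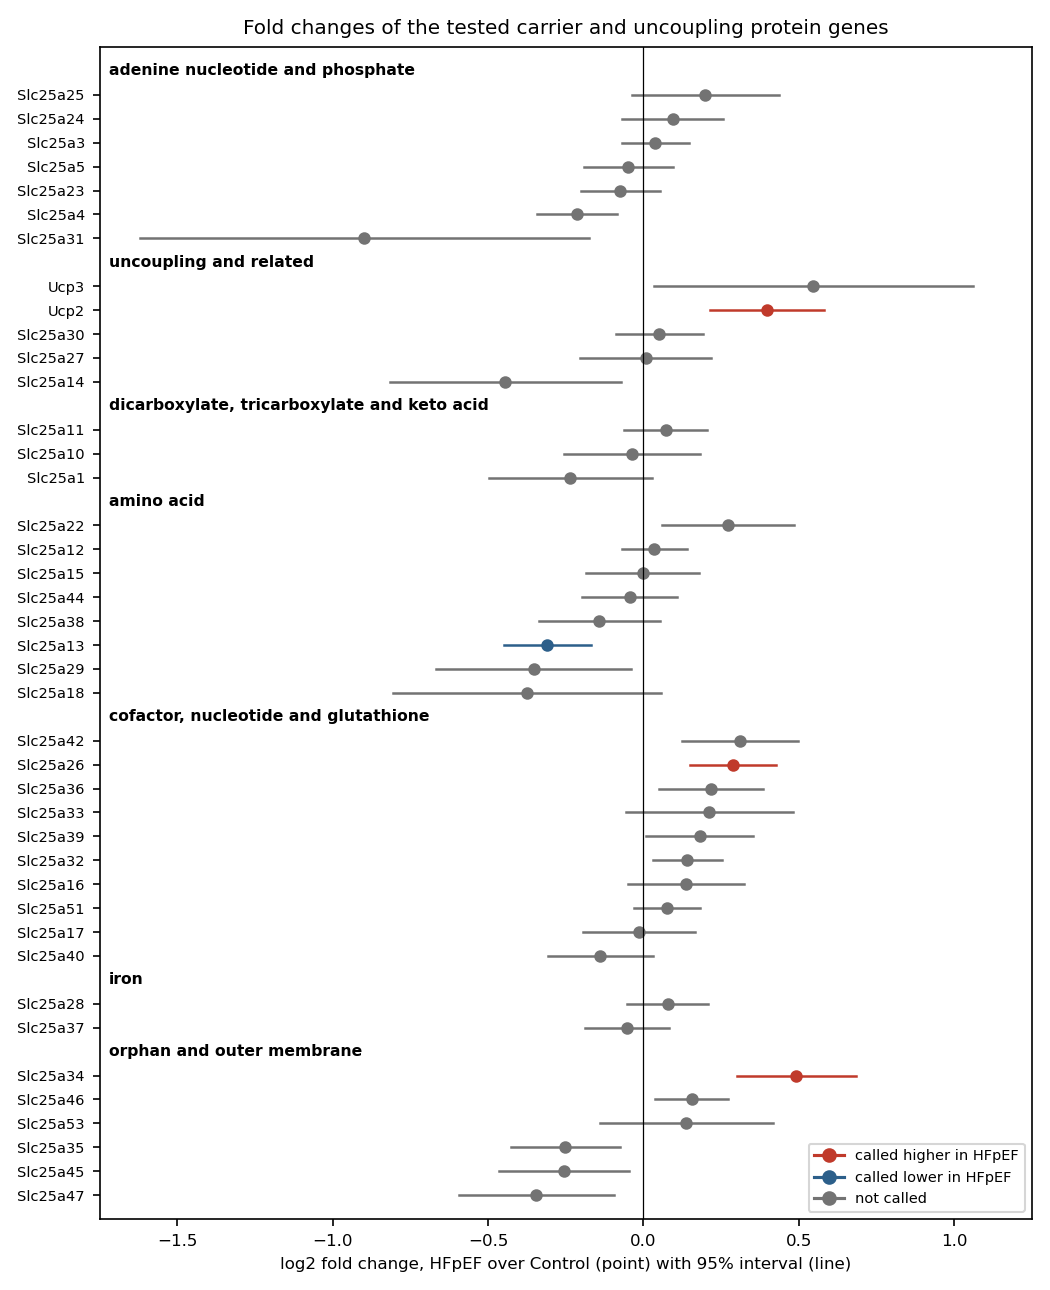
Log2 fold change of 41 of the 42 tested genes, HFpEF over Control (x axis), with its 95% interval, grouped by transported substrate (5 libraries a group). Slc25a34, Ucp2 and Slc25a26 (red) were called higher in HFpEF and Slc25a13 (blue) lower; the 37 genes in grey were not called.

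Levels between genes were compared per length, as RPKM (CPM per kilobase of the longest annotated protein-coding transcript). Slc25a4, the ADP/ATP carrier of heart and muscle, was the most abundant at 417 ± 33.8 RPKM in HFpEF and 484 ± 21.5 RPKM in Control (SD, n = 5 each). Slc25a3, the phosphate carrier, followed at 266 ± 15.2 RPKM in HFpEF and 259 ± 9.30 RPKM in Control. Slc25a11 and Slc25a5 came next at mean levels of 86.5 and 84.5 RPKM over all libraries and did not differ beyond their spread, and Slc25a34 followed at 33.1 RPKM. These 5 genes kept the same order when the union of all annotated exons was used as length, a choice added after seeing the data, although Slc25a3 then stood at 76.1 RPKM. In CPM, Slc25a4 alone supplied 35.5% of the family's summed CPM over all libraries and Slc25a3 17.3%. The summed CPM of the 49 genes was 2430 ± 129 in HFpEF and 2456 ± 102 in Control (SD, n = 5 each), with overlapping ranges. Without Slc25a4 it was 1628 ± 69.0 in HFpEF and 1525 ± 64.4 in Control. These ranges overlapped too, at 1547 to 1702 CPM in HFpEF and 1419 to 1593 CPM in Control.

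**Figure D2:**
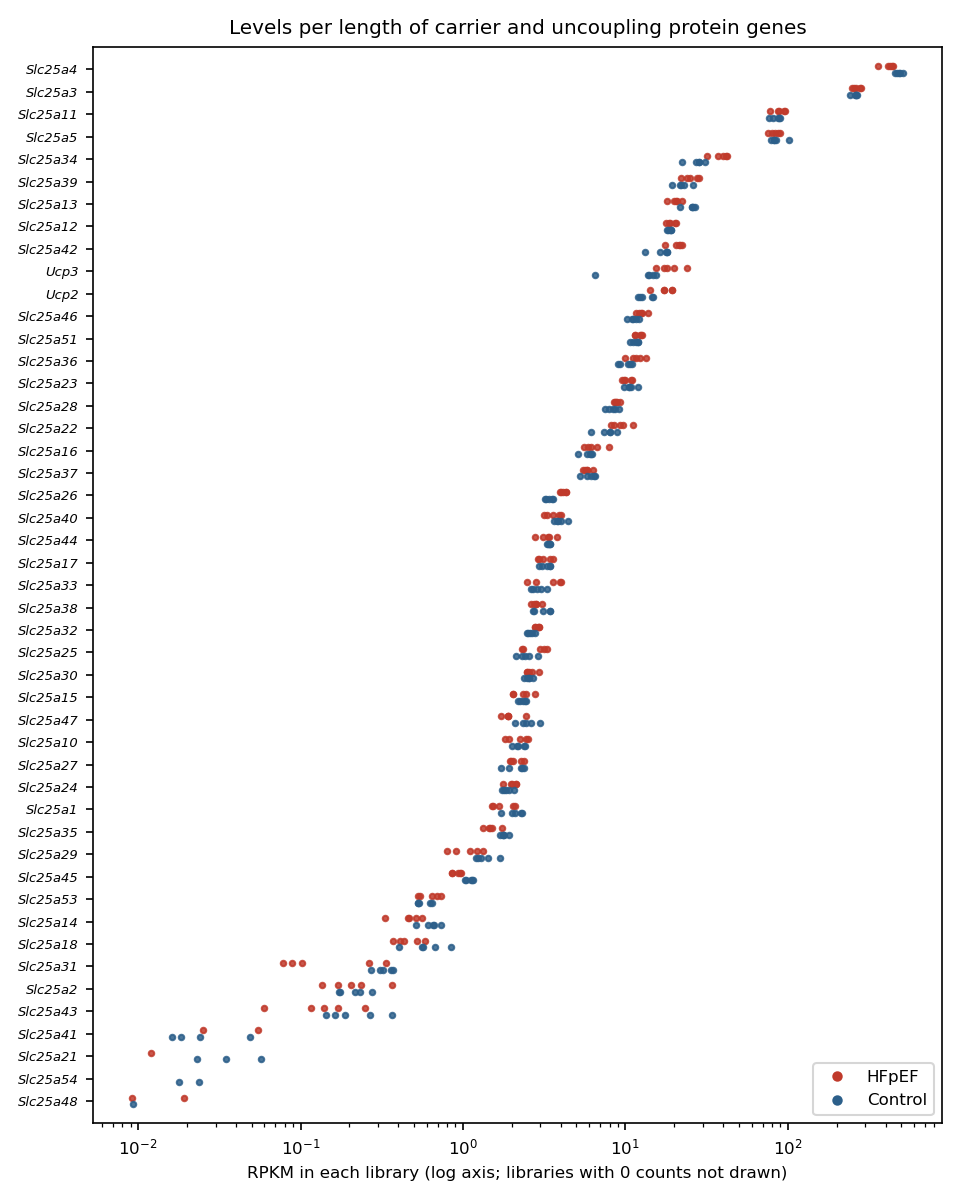
RPKM in each library on a log axis (HFpEF red, Control blue) for 47 of the 48 genes with at least 1 count, ordered by mean level. Slc25a4 and Slc25a3 stand at the top, and the untested genes such as Slc25a48 and Slc25a54 lie at the bottom, with libraries at 0 counts not drawn.

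The 3 called genes for which RefSeq's table of promoters (build GRCm38.p6) holds an entry, Slc25a34, Slc25a13 and Ucp2, are shown with the 250 bases before their start in RefSeq, and Ucp3 is added because it lies next to Ucp2. Capitals mark matches on either strand to the nuclear receptor core motif AGGTCA, the E-box CACGTG, the CCAAT box CCAAT and the GC box GGGCGG, and no matches overlap.
Slc25a34 (chr4:141623835-141624084, minus strand): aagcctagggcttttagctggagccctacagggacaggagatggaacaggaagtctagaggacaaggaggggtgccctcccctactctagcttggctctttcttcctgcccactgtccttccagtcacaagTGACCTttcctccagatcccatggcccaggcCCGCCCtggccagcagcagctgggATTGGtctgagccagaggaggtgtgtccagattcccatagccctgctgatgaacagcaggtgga
Slc25a13 (chr6:6217174-6217423, minus strand): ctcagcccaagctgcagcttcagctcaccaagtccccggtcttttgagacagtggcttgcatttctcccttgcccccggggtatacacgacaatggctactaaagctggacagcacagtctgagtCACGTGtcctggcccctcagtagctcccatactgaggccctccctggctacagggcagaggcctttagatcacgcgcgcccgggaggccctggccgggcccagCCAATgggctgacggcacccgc
Ucp2 (chr7:100493108-100493357, plus strand): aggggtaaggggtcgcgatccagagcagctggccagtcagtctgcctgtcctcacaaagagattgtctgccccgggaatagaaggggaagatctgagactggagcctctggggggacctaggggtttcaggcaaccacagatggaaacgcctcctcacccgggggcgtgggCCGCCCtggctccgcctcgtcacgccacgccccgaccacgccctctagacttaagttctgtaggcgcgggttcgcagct
Ucp3 (chr7:100472741-100472990, plus strand): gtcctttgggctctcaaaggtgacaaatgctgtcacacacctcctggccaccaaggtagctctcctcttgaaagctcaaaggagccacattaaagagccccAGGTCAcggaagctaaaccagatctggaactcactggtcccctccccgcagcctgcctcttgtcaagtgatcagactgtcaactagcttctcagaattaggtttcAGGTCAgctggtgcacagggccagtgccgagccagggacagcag
AGGTCA was found once in the Slc25a34 window, from 119 bases before the start, and in the Ucp3 window from 149 and from 44 bases before it. The Slc25a13 and Ucp2 windows held no match to it. CACGTG was found in the Slc25a13 window alone of these 4, from 125 bases before the start. Slc25a34 and Ucp2 each held GGGCGG, and Slc25a34 and Slc25a13 each held CCAAT. Over windows of the same length before 27025 genes, AGGTCA was present in 13.8%, CACGTG in 6.05%, CCAAT in 34.5% and GGGCGG in 32.9%. Among the 38 members in that table, the counts were 6 for AGGTCA, 6 for CACGTG, 16 for CCAAT and 24 for GGGCGG. A match is a description of the letters, not a bound site.

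Among the 8 carriers of adenine nucleotides and phosphate, 7 were tested and 0 called by edgeR. Slc25a4 and Slc25a31, 2 of the 7, had an unadjusted p below 0.05 in edgeR, against 20.5% of all genes tested. Slc25a4 passed the adjusted threshold with DESeq2 and with voom. Slc25a4 (chromosome 8, 46206797 to 46211284, minus strand) stood at 691, 826, 842, 851 and 800.4 CPM in HFpEF 1 to 5, against 943, 928, 881, 909 and 992 CPM in Control 1 to 5. Every HFpEF library lay below every Control library, with HFpEF 1 the lowest. The 8 cardiomyocyte markers together held 25066 to 27224 CPM in HFpEF and 25796 to 27575 CPM in Control, and of them Tnnt2 (cardiac troponin T) fell (-0.22 ± 0.050, adjusted p = 0.0185, edgeR) while the other 7 were not called by edgeR. DESeq2 called Tnnt2 lower and Ryr2 (the cardiac ryanodine receptor) higher, and voom called Tnnt2 alone. The part of these markers in the Slc25a4 result was not tested. The log2 fold change of Slc25a4 was -0.21 ± 0.061 (SE; 95% interval -0.34 to -0.086), and its adjusted p of 0.0525 missed the threshold narrowly. Slc25a4 passed in 5 of 8 alternatives on all libraries (DESeq2 adjusted p = 0.0126, limma voom 0.0436) and in 1 of the 10 edgeR fits that left out 1 library, that without Control 3 (adjusted p = 0.0477; 0.0477 to 0.118 over the 10 fits). Slc25a5, the more widely expressed ADP/ATP carrier, stood at 93.8, 112, 103, 107 and 99.1 CPM in HFpEF 1 to 5 and 98.3, 106, 102, 102 and 126 CPM in Control 1 to 5. The groups overlapped, and Control 5 was above all other libraries (log2 fold change -0.049 ± 0.068, adjusted p = 0.746, edgeR). Processed pseudogenes resembling Slc25a5 (Gm5529 and Gm5560) held 34 and 8 counts over all libraries against 37114 for Slc25a5 itself. Slc25a3 stood at 410.3, 423, 457, 450.0 and 401 CPM in HFpEF 1 to 5 and 421, 418, 392, 421 and 432 CPM in Control 1 to 5. These ranges overlapped almost fully, and the 95% interval of the log2 fold change was -0.070 to 0.15. Slc25a31, the ADP/ATP carrier of germ cells, was near the filter at 0.167 to 0.714 CPM in HFpEF and 0.578 to 0.786 CPM in Control. It passed the filter through the Control libraries, where it is higher, and had a log2 fold change of -0.90 ± 0.34 (adjusted p = 0.144). The ATP-Mg/phosphate carriers Slc25a23 (-0.074 ± 0.060), Slc25a24 (0.094 ± 0.076) and Slc25a25 (0.20 ± 0.11), which calcium activates and which set the size of the matrix adenine nucleotide pool, were not called. The related Slc25a41 was not tested, with 3 counts in all HFpEF libraries and 5 in all Control libraries.

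Among uncoupling proteins and their close relatives, 5 of 6 were tested and 1 was called. In edgeR, 3 of the 5 had an unadjusted p below 0.05, against 20.5% of all genes tested. Ucp2 (chromosome 7, 100493337 to 100502020, plus strand), an uncoupling protein abundant in immune cells that also carries small dicarboxylic acids, stood at 56.7, 69.0, 68.9, 77.2 and 76.9 CPM in HFpEF 1 to 5 and at 47.8, 50.3, 59.4, 57.9 and 49.2 CPM in Control 1 to 5. HFpEF 1 lay within the Control range and the other 4 HFpEF libraries above it. Ucp2 rose by 0.40 ± 0.086 on the log2 scale (69.7 ± 8.33 CPM in HFpEF and 52.9 ± 5.34 CPM in Control, SD, n = 5; adjusted p = 0.0169, edgeR), and it stayed called in all 10 fits without 1 library and in all 8 other alternatives. Exons of Dnajb13 on the opposite strand overlap 4.36% of its exonic bases. The 6 macrophage markers together held 88.1 to 112 CPM in HFpEF and 108 to 173 CPM in Control (0 of 6 called by edgeR, 5 at an unadjusted p below 0.05, 3 called lower by DESeq2 and 0 by voom). All 6 macrophage markers had negative fold changes, and their part in the Ucp2 result was not tested. The 6 endothelial markers held 933 to 1112 CPM in HFpEF and 985 to 1147 CPM in Control (0 of 6 called by edgeR, DESeq2 or voom, 1 at an unadjusted p below 0.05).

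Ucp3 (chromosome 7, 100472990 to 100486432, plus strand), the uncoupling protein of muscle and brown fat, stood at 59.0, 48.5, 42.1, 37.7 and 44.2 CPM in HFpEF 1 to 5 and at 36.1, 34.2, 16.0, 33.9 and 37.7 CPM in Control 1 to 5. Every HFpEF library was at or above the highest Control library, HFpEF 4 and Control 5 being level to 3 digits, and Control 3 lay far below the rest. The log2 fold change of 0.55 ± 0.23 was the highest positive estimate among the members but had a wide interval (0.034 to 1.06) and was not called (adjusted p = 0.215, edgeR). Without Control 3 it was 0.38 (adjusted p = 0.0879), and no alternative brought it past the threshold (0.0879 to 0.366). Ucp1, the uncoupling protein of brown fat, had 0 counts in every library, which allows at most 0.0184 CPM over the HFpEF libraries and 0.0161 CPM over the Control libraries (3 counts over each group's total; counting error only). The 5 brown adipocyte markers beside it summed to 11.8 to 14.4 CPM in HFpEF and 6.22 to 9.86 CPM in Control, nearly all of it from 1 gene. This gene, Cidea, a lipid droplet protein that is not restricted to fat, rose (12.0 ± 1.03 CPM in HFpEF and 7.62 ± 1.53 CPM in Control, SD, n = 5; log2 fold change 0.64 ± 0.12, adjusted p = 0.00796, edgeR). Dio2 was not called, and Elovl3, Zic1 and Otop1 did not pass the filter. The homologues Slc25a27 (UCP4), Slc25a14 (UCP5) and Slc25a30 (KMCP1), known mostly from brain and kidney, were not called. Slc25a14 was the lowest of them in level, at 0.595 to 1.01 CPM in HFpEF and 0.926 to 1.31 CPM in Control (log2 fold change -0.44 ± 0.17, adjusted p = 0.160).

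**Figure D3:**
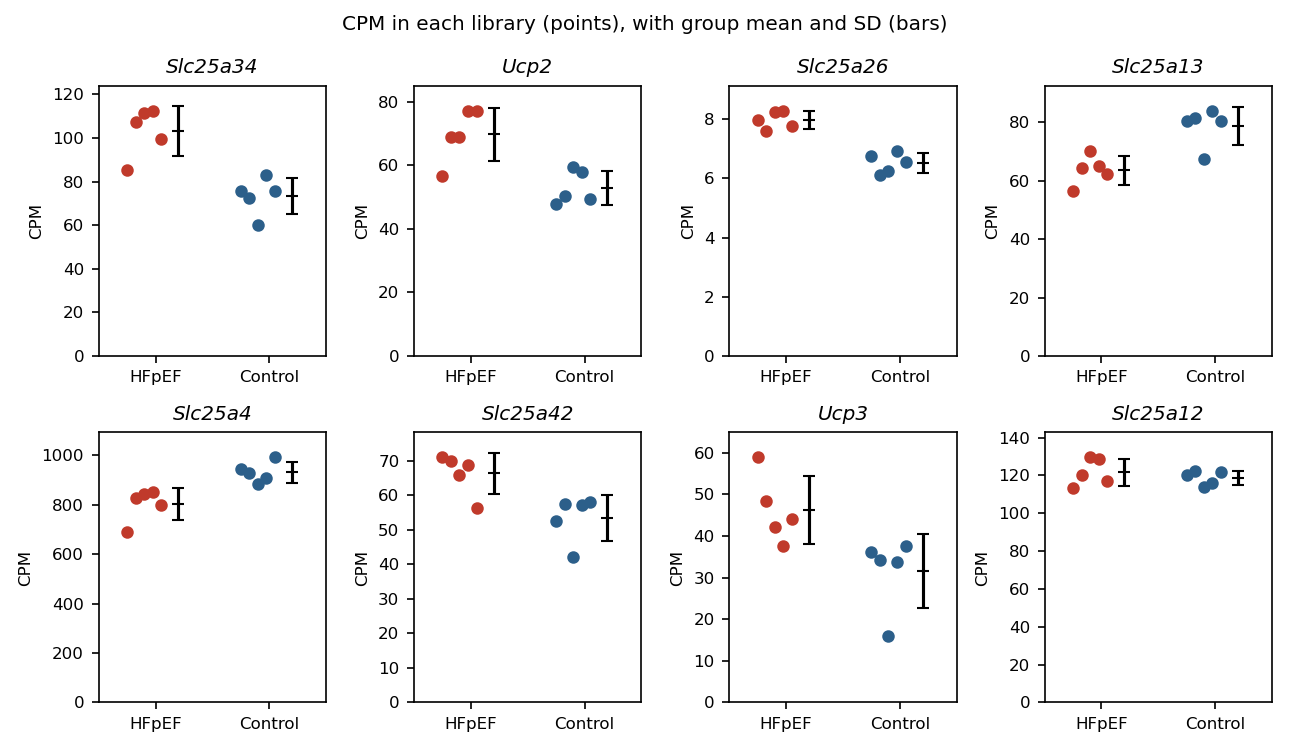
CPM (y axis, from 0) in the 5 HFpEF libraries (red) and 5 Control libraries (blue), with the group mean and SD (black), for the 4 called genes in the upper row and for Slc25a4, Slc25a42, Ucp3 and Slc25a12 below. Slc25a34 and Slc25a26 separate the groups fully, and Control 3 stands low for Slc25a13 and Ucp3.

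Carriers of dicarboxylates, tricarboxylates and keto acids counted 0 calls by edgeR among 3 tested (0 at an unadjusted p below 0.05 and 0 calls by DESeq2 and voom). Slc25a11, the 2-oxoglutarate/malate carrier, stood at 133, 151, 161, 164 and 149 CPM in HFpEF 1 to 5 and 151, 139, 130.3, 153 and 148 CPM in Control 1 to 5. The groups overlapped, with a log2 fold change of 0.071 ± 0.063 and an interval of -0.063 to 0.20. The citrate carrier Slc25a1, which exports citrate for lipid synthesis, was at 2.95 ± 0.474 CPM in HFpEF and 3.47 ± 0.398 CPM in Control (SD, n = 5; -0.23 ± 0.12, adjusted p = 0.303, edgeR). The dicarboxylate carrier Slc25a10 had a log2 fold change of -0.037 ± 0.10. The 2-oxoadipate carrier Slc25a21 was not tested, with 1 count in all HFpEF libraries and 12 in all Control libraries.

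Among amino acid carriers, 8 of 9 were tested, 1 was lower and 7 were not called. In edgeR, 3 of the 8 had an unadjusted p below 0.05, against 20.5% of all genes tested. Slc25a13 (chromosome 6, 6041218 to 6217173, minus strand), the aspartate/glutamate carrier citrin, which predominates in liver, stood at 56.4, 64.4, 70.1, 65.1 and 62.2 CPM in HFpEF 1 to 5 and at 80.6, 81.5, 67.6, 84.0 and 80.5 CPM in Control 1 to 5. The 5 HFpEF libraries lay below all Control libraries except Control 3, which fell inside the HFpEF range. Its log2 fold change was -0.31 ± 0.066 (63.6 ± 4.97 CPM in HFpEF and 78.8 ± 6.46 CPM in Control, SD, n = 5; adjusted p = 0.0130, edgeR), and it stayed called in all 18 alternatives, with adjusted p values of 0.00217 to 0.0415 in the 10 fits without 1 library. Its paralogue Slc25a12 (aralar), the aspartate/glutamate carrier of heart, muscle and brain, stood at 113, 120.5, 129.7, 128 and 117 CPM in HFpEF 1 to 5 and 120.3, 122, 114, 116 and 122 CPM in Control 1 to 5. The groups overlapped, with a log2 fold change of 0.035 ± 0.049 and an interval of -0.070 to 0.14. Per length the pair stood close together: Slc25a13 at 20.4 ± 1.59 RPKM in HFpEF and 25.3 ± 2.07 RPKM in Control, and Slc25a12 at 19.2 ± 1.12 RPKM in HFpEF and 18.7 ± 0.582 RPKM in Control (SD, n = 5).

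The glutamate carrier Slc25a22 (0.27 ± 0.099, adjusted p = 0.134) and the basic amino acid carrier Slc25a29 (-0.35 ± 0.15, adjusted p = 0.190) had unadjusted p values below 0.05 in opposite directions and were not called by edgeR. The second glutamate carrier Slc25a18 (-0.37 ± 0.20), the ornithine carrier Slc25a15 (-0.0021 ± 0.085), the glycine carrier Slc25a38, needed for haem synthesis (-0.14 ± 0.091), and the branched-chain amino acid carrier Slc25a44 (-0.045 ± 0.072) were not called either. The ornithine carrier Slc25a2 was not tested, with 6 to 16 counts per HFpEF library and 8 to 14 per Control library. Of the enzymes that complete the NADH shuttles, 0 of 7 were called by edgeR, DESeq2 or voom. In edgeR, 3 of these 7 had an unadjusted p below 0.05, against 20.5% of all genes tested. The cytosolic and mitochondrial aspartate aminotransferases Got1 (-0.10 ± 0.077) and Got2 (0.15 ± 0.055) were among the 7 enzymes not called. So were the malate dehydrogenases Mdh1 (0.042 ± 0.052) and Mdh2 (0.15 ± 0.059).

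Cofactor, nucleotide and glutathione carriers counted 1 higher, 0 lower and 10 not called of 11 tested. In edgeR, 5 of the 11 had an unadjusted p below 0.05, against 20.5% of all genes tested. Slc25a26 (chromosome 6, 94500331 to 94604672, plus strand), which imports the methyl donor S-adenosylmethionine, stood at 7.98, 7.60, 8.24, 8.29 and 7.76 CPM in HFpEF 1 to 5 and at 6.75, 6.13, 6.25, 6.91 and 6.55 CPM in Control 1 to 5. All HFpEF libraries were above all Control libraries, and the spread within each group was small. Exons of Lrig1 on the opposite strand overlap 3.00% of the exonic bases of Slc25a26. Slc25a26 rose by 0.29 ± 0.065 on the log2 scale (7.98 ± 0.299 CPM in HFpEF and 6.52 ± 0.328 CPM in Control, SD, n = 5; adjusted p = 0.0183, edgeR). Among the fits that left out 1 library, the call ended without HFpEF 3 (adjusted p = 0.0531) and without HFpEF 4 (0.0509). Slc25a42, which imports coenzyme A, stood at 71.1, 69.8, 65.9, 68.7 and 56.5 CPM in HFpEF 1 to 5 and at 52.5, 57.5, 42.1, 57.1 and 58.0 CPM in Control 1 to 5. HFpEF 5 lay inside the Control range, and the log2 fold change of 0.31 ± 0.087 narrowly missed the threshold (adjusted p = 0.0538, edgeR). It was called with DESeq2 (0.0117) and with the stricter filter (0.0481), and also without Control 5 (edgeR adjusted p = 0.0482) or without HFpEF 5 (0.0240). Among 8 enzymes of coenzyme A synthesis, Dcakd, a kinase-domain protein assigned to this pathway by homology, rose (19.1 ± 1.75 CPM in HFpEF and 15.4 ± 1.29 CPM in Control, SD, n = 5; 0.31 ± 0.073, adjusted p = 0.0248, edgeR), and 7 were not called, the pantothenate kinases Pank1 (0.10 ± 0.062) and Pank4 (0.13 ± 0.057) among them.

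Of the other cofactor and nucleotide carriers, Slc25a32, which carries folate and FAD, had HFpEF libraries all above Control (16.4 to 17.5 CPM in HFpEF and 14.6 to 16.4 CPM in Control) with a small log2 fold change of 0.14 ± 0.051 (adjusted p = 0.128, edgeR). The pyrimidine nucleotide carriers Slc25a36 (0.22 ± 0.078) and Slc25a33 (0.21 ± 0.13) were not called, and an antisense gene overlaps 14.9% of the exonic bases of Slc25a33. The glutathione carriers had estimates of opposite sign, 0.18 ± 0.080 for Slc25a39 and -0.14 ± 0.080 for Slc25a40, and neither was called. The NAD carrier Slc25a51 (0.075 ± 0.050), the coenzyme A-linked Slc25a16 (0.14 ± 0.088) and the peroxisomal carrier Slc25a17 (-0.015 ± 0.084) were not called, with adjusted p values of 0.413 or more.

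The mitoferrins import iron into the matrix for haem and iron-sulfur clusters. Neither Slc25a37 (mitoferrin 1, 24.3 ± 1.29 CPM in HFpEF and 25.2 ± 2.18 CPM in Control) nor Slc25a28 (mitoferrin 2, 13.5 ± 0.448 CPM in HFpEF and 12.8 ± 0.943 CPM in Control; SD, n = 5) was called, with 95% intervals of the log2 fold change of -0.19 to 0.081 for Slc25a37 and -0.051 to 0.21 for Slc25a28 (0 of 2 by edgeR, DESeq2 or voom, and 0 at an unadjusted p below 0.05). Mitoferrin 1 is known from erythroid cells, and the 7 erythroid markers summed to 412 to 713 CPM in HFpEF and 440.0 to 636 CPM in Control.

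Among carriers without a settled substrate, together with the outer membrane protein Slc25a46, 6 of 9 were tested and 1 was called. In edgeR, 5 of the 6, all but Slc25a53, had an unadjusted p below 0.05, against 20.5% of all genes tested. Slc25a34 (chromosome 4, 141618824 to 141623821, minus strand) had the smallest p of the family. It stood at 85.2, 107, 112, 113 and 99.4 CPM in HFpEF 1 to 5 and at 75.7, 72.4, 60.0, 83.0 and 75.6 CPM in Control 1 to 5. All HFpEF libraries were above all Control libraries, though HFpEF 1 and Control 4 were close. Slc25a34 rose by 0.49 ± 0.089 on the log2 scale (103 ± 11.3 CPM in HFpEF and 73.3 ± 8.42 CPM in Control, SD, n = 5; adjusted p = 0.00681, edgeR) and stayed called in all 18 alternatives, with adjusted p values of 0.000946 to 0.0240 in the 10 fits without 1 library. Its substrate is not established. Slc25a35, the relative of Slc25a34 in sequence, had an estimate of the other sign (5.47 ± 0.566 CPM in HFpEF and 6.50 ± 0.327 CPM in Control, SD, n = 5; -0.25 ± 0.082, adjusted p = 0.0918, edgeR) and was called in 1 of the 18 alternatives, the fit without HFpEF 2 (adjusted p = 0.0365). Rangrf on the opposite strand overlaps 31.3% of its exonic bases. Slc25a45 (2.22 to 2.53 CPM in HFpEF and 2.69 to 2.99 CPM in Control) had all HFpEF libraries below all Control libraries but a log2 fold change of -0.26 ± 0.098 that was not called (adjusted p = 0.150). Slc25a47, known from liver (-0.34 ± 0.12), Slc25a53 (0.14 ± 0.13) and Slc25a46, which shapes mitochondria (0.16 ± 0.056), were not called. Slc25a43, Slc25a48 and Slc25a54 were not tested, with 26, 3 and 0 counts in all HFpEF libraries, against 46, 1 and 3 in all Control libraries.

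Paralogues with a shared substrate were compared within each library as the log2 ratio of their counts (pseudocount 0.5), a measure that library scaling does not affect. The ratio of Slc25a12 to Slc25a13 was 1.00, 0.90, 0.89, 0.98 and 0.91 in HFpEF 1 to 5 and 0.58, 0.58, 0.75, 0.47 and 0.60 in Control 1 to 5. Each HFpEF library was above each Control library, and the mean ratio was 0.94 ± 0.051 in HFpEF and 0.60 ± 0.10 in Control (SD, n = 5), a difference of 0.34. The exact permutation test gave a two-sided p of 0.00794, the smallest that 5 against 5 libraries allow, and 0.0556 after Benjamini-Hochberg adjustment over the 7 pairs. Slc25a13 was already called lower in these same libraries, so this ratio is not separate evidence of a change. The pairs were chosen with earlier results of these data known, which the adjustment does not cover. The ratio of Slc25a4 to Slc25a5 was 2.88, 2.89, 3.02, 2.99 and 3.01 in HFpEF 1 to 5 and 3.26, 3.14, 3.11, 3.16 and 2.98 in Control 1 to 5. It averaged 2.96 ± 0.069 in HFpEF and 3.13 ± 0.10 in Control (SD, n = 5; difference -0.17, exact permutation p = 0.0317, adjusted p = 0.111), and Control 5 fell inside the HFpEF range. The ratio of Ucp3 to Ucp2 averaged -0.60 ± 0.41 in HFpEF and -0.80 ± 0.63 in Control (SD, n = 5; exact permutation p = 0.627, adjusted p = 0.731). The differences were 0.33 for Slc25a39 over Slc25a40, -0.17 for Slc25a23 over Slc25a24, -0.13 for Slc25a37 over Slc25a28 and -0.019 for Slc25a33 over Slc25a36. After adjustment 0 of 7 ratios were past 0.05 in the exact permutation tests, and 2 were at an unadjusted p below 0.05. A lone pair could not have passed the adjusted threshold with 5 libraries a group.

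**Figure D4:**
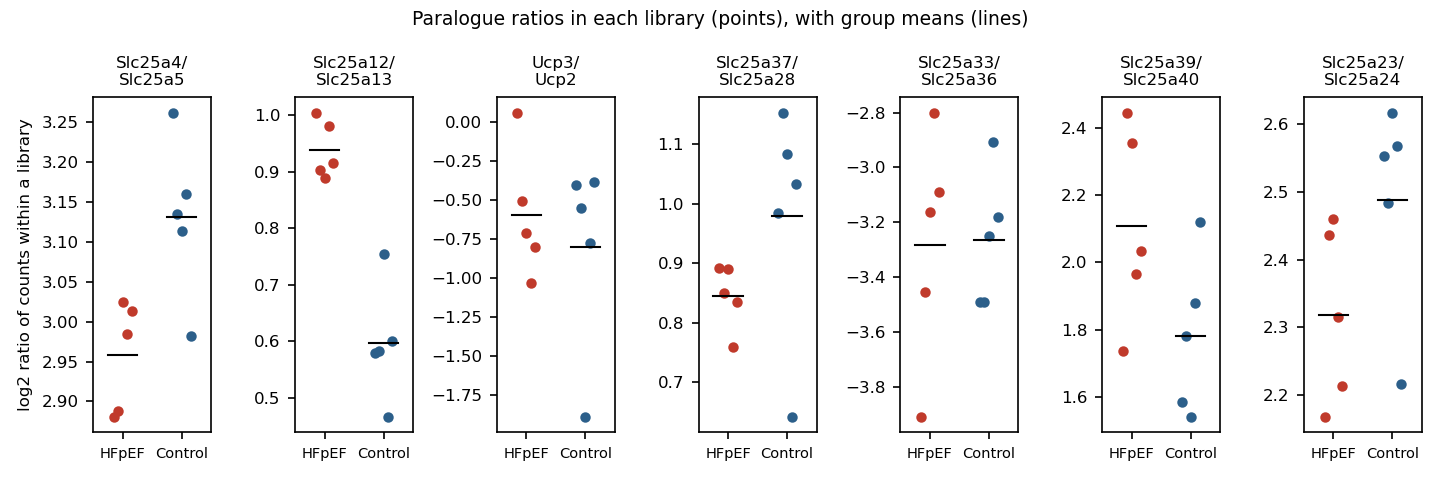
Log2 ratio of counts of 2 paralogous carriers (y axis, a separate scale for each pair) in each HFpEF library (red) and Control library (blue), with group means as lines. The ratio of Slc25a12 to Slc25a13 is the pair whose groups do not overlap, at 0.89 and above in HFpEF and 0.75 and below in Control.

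In GENCODE M21 (build mm10), 5 pairs of members are direct neighbours with no other protein-coding gene between them. Ucp3 and Ucp2 lie in the same orientation on chromosome 7, 6904 bases apart, and both had positive fold changes, of which that of Ucp2 was called. Slc25a29 and Slc25a47 lie head to head on chromosome 12, 162 bases apart. Slc25a29 was at 1.58 to 2.62 CPM in HFpEF and 2.38 to 3.33 CPM in Control. Slc25a47 was at 3.24 to 4.63 CPM in HFpEF and 3.93 to 5.66 CPM in Control. Both had negative estimates, with log2 fold changes of -0.35 ± 0.15 and -0.34 ± 0.12 (adjusted p = 0.190 and 0.105, edgeR; neither called). The other neighbours were Slc25a41 and Slc25a23 on chromosome 17, Slc25a54 and Slc25a24 on chromosome 3, and Slc25a43 and Slc25a5 on chromosome X. In each of these the first gene was below the filter and the second was tested and not called.

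Transport proteins of the mitochondrial membranes outside the SLC25 family were set beside the carriers. Of 20 tested, Slc30a9, a zinc transporter, rose (90.0 ± 7.77 CPM in HFpEF and 77.2 ± 4.50 CPM in Control, SD, n = 5; 0.22 ± 0.061, adjusted p = 0.0490, edgeR), 0 fell and 19 were not called (DESeq2 called 2 higher and voom 0). The pyruvate carrier subunits Mpc1 (-0.072 ± 0.062) and Mpc2 (-0.032 ± 0.051) and the outer membrane channels Vdac1 (0.11 ± 0.052), Vdac2 (-0.060 ± 0.059) and Vdac3 (0.15 ± 0.052) were among those not called. The median log2 fold change was 0.037 over these 20 genes. In edgeR, 7 of the 20 had an unadjusted p below 0.05, against 20.5% of all genes tested. HFpEF lay fully above Control in CPM for 2 of the 20, against 3.88% of all genes tested, and fully below for 0. Over all genes, DESeq2 called 926 higher and voom 588.

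The spread within groups bears on these comparisons. The median coefficient of variation of the 42 tested members was 10.1% in HFpEF and 8.43% in Control. HFpEF 1 held the lowest value of its group for 18 of 42 members and Control 3 the lowest of its group for 18, while Control 5 held the highest of its group for 20.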

How the data were processed

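Left ventricular RNA was depleted of ribosomal RNA before library construction, per the labels' protocols. The submitters' processing notes list the tools RSEM 1.2.15 and Bowtie2 2.1.0 and the build mm10 without saying what each did. The values the authors deposited are estimated counts per gene, whole numbers that are not normalized; the table's 92 ERCC spike-in sequences had 0 counts and were left out. Depth, given in the report, limits the precision of genes near the filter.

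Genes kept by filterByExpr (minimum count 10) were tested with edgeR 4.0.16 in R 4.3.3 (robust quasi-likelihood test on TMM-scaled counts, a single group term, Benjamini-Hochberg adjustment over 18491 genes). The procedure was tested on simulated data. A standard error is the absolute fold change over the square root of F. Paralogue ratios were compared with exact permutation tests. Lengths, coordinates and overlaps came from GENCODE M21, which matched all 49 members by identifier, and similar transcripts from blastn (at least 95% identity over 200 bases). Alternatives were RLE and upper quartile scaling, no filter, a stricter filter (minimum count 50), DESeq2 1.42.0, limma 3.58.1 voom, a replicate block, leaving out mitochondrial transcripts, and leaving out each library. Context genes past the threshold were named by rule. Among them, Nppa, in a list of 6 atrial markers not described above, was lower in HFpEF (21.6 ± 6.69 CPM in HFpEF and 49.3 ± 8.35 CPM in Control, SD, n = 5). Its log2 fold change was -1.19 ± 0.22 (adjusted p = 0.0187, edgeR), and 2 other atrial markers were tested and not called. Context genes not past the threshold were named after their values were seen.

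Members, lists, classes and pairs were chosen with earlier results of these data known. Values in every library are given for called members, uncoupling proteins and the 5 most abundant members, and also for Slc25a12 and Slc25a42, chosen after their values were seen; the motifs searched were likewise chosen after the fold changes were seen. The values of 1 tested member are not reported here; it is included in the counts and sums.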

Additional observations from a re-analysis of the deposited data

Results flagged for a closer look

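A library stood apart from the other 4 of its group in 5 of 98 groups of 5 examined (each tested member and each paralogue ratio, in both groups), where chance gives about 1 in 20. Slc25a47 was at 4.63 CPM in HFpEF 4, above the other HFpEF libraries at 3.24 to 3.58 CPM. Control 3 was the lowest Control library for Slc25a13 at 67.6 CPM (others 80.5 to 84.0) and for Ucp3 at 16.0 CPM (others 33.9 to 37.7). The log2 ratio of Ucp3 to Ucp2 was likewise lowest in Control 3, at -1.89 (others -0.77 to -0.38). Slc25a5 was at 126 CPM in Control 5, above the other Control libraries at 98.3 to 106 CPM. The cause of these values was not tested.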

How the results depend on the processing

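The number of members called was 3 to 6 over all 18 alternatives, against 4. Slc25a34, Slc25a13 and Ucp2 were called in each of them. Slc25a26 was lost with the replicate block (adjusted p = 0.0531), where 3 members were called, and without HFpEF 3 or HFpEF 4. No label ties same-numbered libraries of the 2 groups beyond the number. The correlations of their deviations from the group means ran from -0.110 to 0.0638, which cannot settle whether they were handled together. The count over all genes tested was 744 with the block and 985 without it. It was 1448 with DESeq2 (6 members called) and 952 with voom (5 members called). Over the fits that left out 1 library it ran from 554 to 1101, lowest without HFpEF 3 (554), Control 1 (630) and HFpEF 4 (633). The number of paralogue ratios past 0.05 was 0 with the block as a sign-flip test, 0 with pseudocount 5 and 0 to 2 over the repeats that left out 1 library (2 without Control 4 or Control 5). Sign changes were seen, among the members reported by name, in 6 near 0, and in 2 ratios. Slc25a27 was at -0.0056 with upper quartile scaling, and Slc25a15 at 0.0037 with RLE scaling and 0.0036 with DESeq2. Over the fits that left out 1 library, the log2 fold changes ran over -0.078 to 0.025 for Slc25a5, -0.10 to 0.010 for Slc25a44, -0.090 to 0.021 for Slc25a10, -0.061 to 0.017 for Slc25a17, -0.055 to 0.057 for Slc25a27 and -0.071 to 0.044 for Slc25a15. The log2 ratio difference ran over -0.070 to 0.31 for Ucp3 to Ucp2 (negative without Control 3) and -0.14 to 0.14 for Slc25a33 to Slc25a36. The cause of these changes was not tested. Scaling moved the median of all genes by less than 0.1.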
